A study of Mus musculus with 58 samples.

Results

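The Hox genes of the 4 mouse clusters were described across oocytes, morulae and extraembryonic ectoderm with and without Pcgf1 and Pcgf6. Members were chosen by name alone, as genes whose symbol is Hoxa, Hoxb, Hoxc or Hoxd followed by a paralog number, and 38 of the 24077 genes in the table are reported. They comprise 10 Hoxa, 10 Hoxb, 9 Hoxc and 9 Hoxd genes. Fully grown oocytes (FGO) of B6.129 strain gave 2 double knockout (KO) libraries and 2 control (CTR) libraries whose genotype label is wild type. Morulae of the cross of B6.129 mothers with a PWK father gave 2 double maternal knockout (matKO) and 2 CTR libraries, and extraembryonic ectoderm (ExE), the trophoblast tissue next to the epiblast, of the same cross gave 4 matKO and 2 CTR libraries. In matKO embryos the knockout is maternal, so the oocyte had lacked both genes, and the label assigns no knockout to the father. The sources used here do not give the promoter that drove the deletion or the number of animals or embryos pooled per library. Nothing in the labels says that replicates came from separate animals, so p-values measure only the spread between these libraries, which may be technical.

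Hox genes encode homeodomain transcription factors that assign positional identity along the body axis. Within a cluster, genes at the 3' end (low paralog numbers) are switched on earlier and further towards the head than genes at the 5' end (high paralog numbers). Before that, the clusters are classical Polycomb targets. Pcgf1 and Pcgf6 are subunits that define 2 variant forms of Polycomb repressive complex 1 (PRC1), the enzyme that ubiquitinates histone H2A. The form with PCGF1 carries KDM2B, which binds unmethylated CpG dinucleotides. The form with PCGF6 carries MGA and MAX, which recognise the E-box CACGTG, and E2F6. The comparison of KO with CTR oocytes therefore asks which Hox genes have RNA when both subunits are missing, and the embryo libraries ask whether such a difference is seen after fertilisation.

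In KO oocytes, 6 of the 11 Hox genes with enough reads to be tested were called higher than in CTR oocytes. They were Hoxd1, Hoxd8, Hoxd9, Hoxa10, Hoxa4 and Hoxb1. No Hox gene passed in the other direction. Of all 13459 genes tested, 5.35% were called higher and 1.87% lower. Hox genes near silent in CTR entered the test only where they were high in KO, so these counts are not a share of the family. The 3 genes with the smallest adjusted p lay in the Hoxd cluster, on chromosome 2 from 74668225 to 74765142 (GRCm38.p6). The 250 bases upstream of the RefSeq start of these 3 genes are shown here because they have the smallest adjusted p among the Hox genes. Hoxd13, at the opposite end of the same cluster, is added as a gene with fewer reads in KO oocytes. Capitals mark CpG dinucleotides, all 4 windows lie on the plus strand, and the sequences are from RefSeq on GRCm38.p6. The windows are chr2:74762730-74762979 for Hoxd1, chr2:74704365-74704614 for Hoxd8, chr2:74697513-74697762 for Hoxd9 and chr2:74667975-74668224 for Hoxd13.
Hoxd1: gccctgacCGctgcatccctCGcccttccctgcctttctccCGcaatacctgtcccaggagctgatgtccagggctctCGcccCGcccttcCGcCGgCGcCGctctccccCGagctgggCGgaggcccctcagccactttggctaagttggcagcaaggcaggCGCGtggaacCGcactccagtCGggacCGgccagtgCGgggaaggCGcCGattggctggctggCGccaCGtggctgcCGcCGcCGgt
Hoxd8: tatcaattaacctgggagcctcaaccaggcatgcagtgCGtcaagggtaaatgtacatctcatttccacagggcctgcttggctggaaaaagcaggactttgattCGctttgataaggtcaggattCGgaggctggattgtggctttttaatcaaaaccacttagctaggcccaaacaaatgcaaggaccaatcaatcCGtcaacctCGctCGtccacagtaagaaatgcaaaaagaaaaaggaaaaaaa
Hoxd9: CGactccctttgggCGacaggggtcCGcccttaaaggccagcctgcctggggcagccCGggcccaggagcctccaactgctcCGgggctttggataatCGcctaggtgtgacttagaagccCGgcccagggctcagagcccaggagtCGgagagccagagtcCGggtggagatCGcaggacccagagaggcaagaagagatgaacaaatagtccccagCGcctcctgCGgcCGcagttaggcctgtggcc
Hoxd13: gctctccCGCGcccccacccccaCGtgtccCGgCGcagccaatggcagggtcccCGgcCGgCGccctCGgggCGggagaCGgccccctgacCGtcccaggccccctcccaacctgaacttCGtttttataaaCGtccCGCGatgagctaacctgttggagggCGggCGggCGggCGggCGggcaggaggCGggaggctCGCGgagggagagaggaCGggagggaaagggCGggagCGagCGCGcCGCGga

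The windows differ in composition. The window of Hoxd1 held 24 CpG dinucleotides, more than 88.0% of the 32851 windows in the RefSeq table, and that of Hoxd9 held 13. The window of Hoxd8 held 6, which is also the median of all windows, and that of Hoxd13 held 31. RefSeq windows were matched for 22 of the 38 members, 24 windows in all, and 16 members had none, Hoxa4 among them. Member windows had a median of 12.5 CpG dinucleotides (range 2 to 35), against 6 for all windows (quartiles 2 and 16). The windows of the Hox genes called higher in KO oocytes held between 6 and 24, with 7 for Hoxb1 and 7 and 20 for the 2 starts of Hoxa10. Windows of members without a read in oocytes lay in the same span, with 6 for Hoxa2, 8 for Hoxc4, 12 for Hoxb8 and 13 for Hoxa11. The E-box CACGTG, whose letters read the same on both strands and include 1 CpG, was found in 4 of the 24 member windows and in 6.02% of all windows. Those windows belong to Hoxd1, Hoxd10, 1 of the 2 starts of Hoxd11, and Hoxd13, so that among the called genes with a window Hoxd1 alone held it. The letters GCGGGAA, searched on both strands as an E2F-type motif, were in 0 of the 24 member windows and in 3.82% of all windows. These matches describe letters in a window of 250 bases and say nothing about binding.

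**Figure D1:**
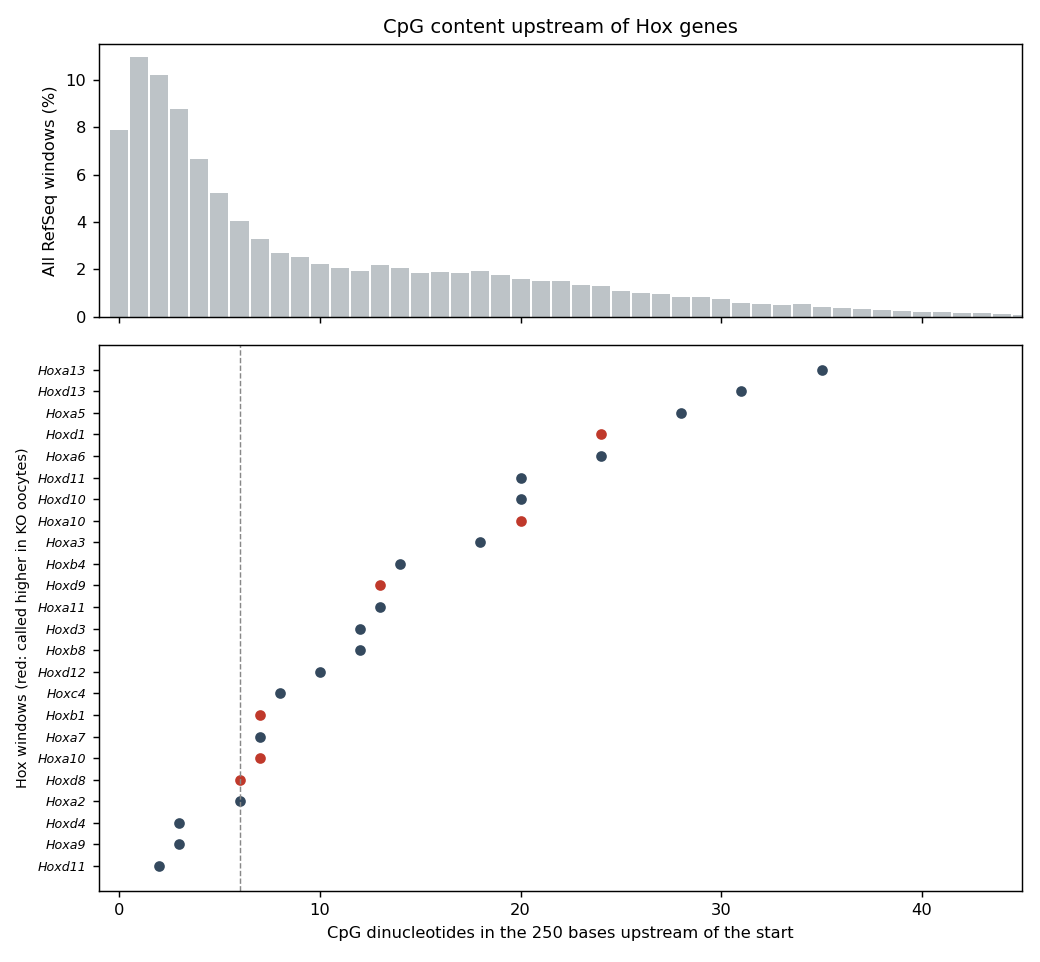
CpG dinucleotides in the 250 bases upstream of RefSeq starts. The upper panel gives the percentage of all 32851 windows at each count, and the lower panel has 1 point for each of the 24 Hox windows, with genes called higher in KO oocytes in red and the median of all windows as a dashed line at 6. Red points spread from 6 (Hoxd8) to 24 (Hoxd1) and do not separate from the others.

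The targeted genes were checked first. Pcgf1 fell to 28.8 ± 8.51 CPM (reads of a gene over the library total, scaled to counts per 1e6) in KO oocytes, against 1253 ± 217 CPM in CTR oocytes (SD, n = 2 each, log2 change -5.56, SE 0.24, edgeR adjusted p = 1.96e-05). Pcgf6 fell to 198 ± 30.3 CPM in KO oocytes, against 412 ± 23.3 CPM in CTR oocytes (SD, n = 2 each, log2 change -1.14, SE 0.19, adjusted p = 0.0102), so that much of its RNA was still counted in KO. The sources used here do not say which parts of the genes were deleted, and reads outside a deleted part would still be counted. In ExE the maternal Pcgf6 reads numbered 200 to 310 in matKO libraries and 819 and 672 in CTR libraries. In morulae the maternal Pcgf6 reads numbered 130 and 110 in matKO and 210 and 218 in CTR, while Pcgf1 ran the other way, with 4 and 4 reads in matKO, all maternal, and 1 and 0 in CTR, none maternal (ratio 9.89, counting interval 1.33 to 439). So few reads do not settle the matKO label. In ExE Pcgf1 had 1 read in all. Totals were 19805264 to 26364085 reads in oocyte, 1299715 to 1685510 in morula and 3397585 to 4361832 in ExE libraries. Morula and ExE values are sums of reads assigned to a parent. ExE matKO replicate 3 stands apart, with 35.8% of its assigned reads maternal, against 50.6% to 52.6% in the other embryo libraries. Oocyte markers were all present in oocytes (summed 15342 to 20332 CPM in KO, 20638 to 21132 in CTR). In morulae 8 of 10 morula markers were present (summed 1690 to 1963 CPM in matKO, 2330 to 2343 in CTR), with the defining markers Pou5f1 and Tdgf1 at 0 in both genotypes. In ExE 9 of 10 ExE markers were present (summed 2331 to 3309 CPM in matKO, 1624 to 2167 in CTR, Bmp4 at 0 in both).

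Among all genes tested in oocytes, 5.35% were called higher in KO and 1.87% lower (edgeR quasi-likelihood test, Benjamini-Hochberg adjusted p under 0.05, 13459 genes). Of the 38 Hox genes, 11 had enough reads to be tested, 6 were called higher and 0 lower. DESeq2 called 4 higher and 0 lower. None of the 11 was lower at an unadjusted p under 0.05. The filter keeps a gene that is near silent in CTR only where it is high in KO, and such a gene could not be called lower. The count of 6 among 11 is therefore not a share of the family, and the lack of lower calls says little about direction. For every Hox gene with at least 10 reads over the 4 libraries the reads are given below, and 18 genes reached that level. In 15 of these 18 both KO libraries lay above both CTR libraries in CPM, in 2 (Hoxc6 and Hoxd13) below, and in Hoxd10 the groups overlapped. The same held in the upward direction for 35.3%, and in the downward direction for 14.8%, of the 6577 genes with 10 to 500 reads, a range that Hoxa7 exceeds. A further 13 Hox genes had 1 to 9 reads. The other 7, Hoxa2, Hoxa11, Hoxb5, Hoxb8, Hoxc4, Hoxc11 and Hoxc12, had none in any oocyte library. In these bulk libraries, a difference in the share of transcribing oocytes and a difference in RNA per oocyte cannot be told apart.

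**Figure D2:**
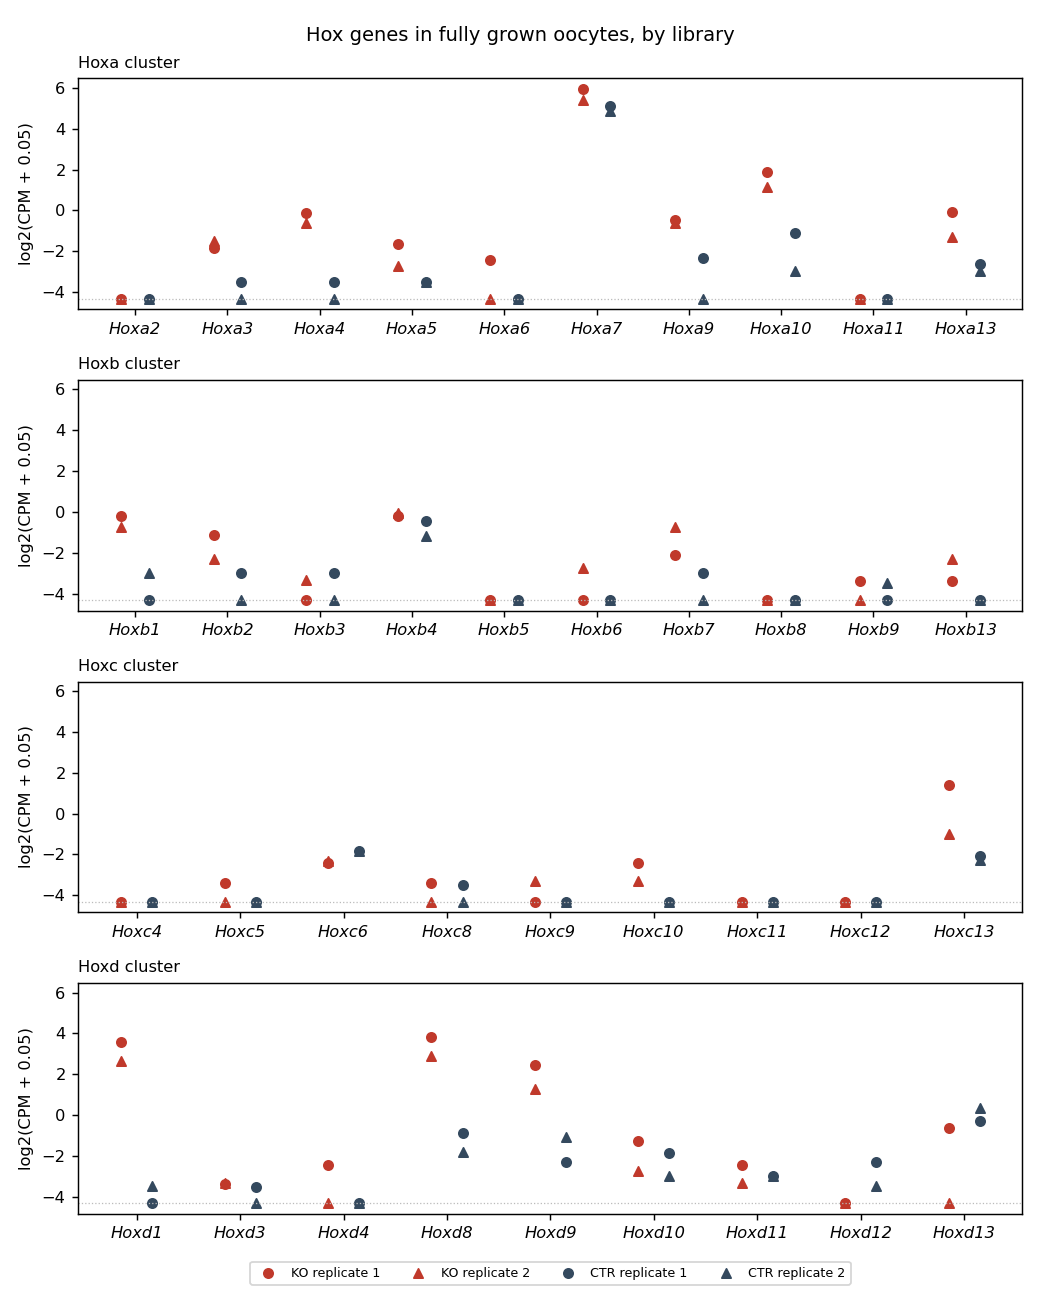
Level of each Hox gene in each oocyte library, as log2 of CPM plus 0.05, with 1 panel per cluster and genes in order of paralog number. Red symbols are KO and dark symbols CTR, circles are replicate 1 and triangles replicate 2, and the dotted line marks 0 reads. KO symbols stand clear of CTR symbols at Hoxd1, Hoxd8 and Hoxd9, and those of Hoxa7 lie closer together, with all 4 libraries well above 0 reads.

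Hoxd1, the most 3' gene of its cluster, had 266 and 123 reads in KO oocytes, against 0 and 1 read in CTR oocytes. It was all but unread in CTR and read in both KO libraries. The rate was 485 times higher in KO (95% counting interval 86.5 to 19186), with an edgeR log2 change of 8.43 (SE 0.68, adjusted p = 0.000555). Hoxd8, a mid-cluster gene, had 309 and 145 reads in KO and 13 and 6 in CTR. Its level averaged 10.7 ± 4.75 CPM in KO and 0.363 ± 0.184 CPM in CTR (SD, n = 2 each), with a log2 change of 4.73 (SE 0.46, adjusted p = 0.00115). Hoxd9, which neighbours Hoxd8 on its 5' side, had 5.41 and 2.37 CPM in KO and 0.152 and 0.428 CPM in CTR, where the CTR libraries had 4 and 11 reads. The log2 change of Hoxd9 was 3.60 (SE 0.59, adjusted p = 0.00963). The groups of all 3 genes were far apart, and in each the first KO library exceeded the second.

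The other 3 called genes came from 2 clusters. Hoxa10, a 5' gene that patterns the uterus and is also known in limb and blood development, had 81 and 43 reads in KO and 11 and 2 in CTR (log2 change 3.41, SE 0.65, adjusted p = 0.0163). Hoxa4, a 3' gene of the cervical region, had 19 and 12 reads in KO, against 1 and 0 in CTR (log2 change 4.82, SE 0.99, adjusted p = 0.0228). Hoxb1, which specifies a hindbrain segment, had 18 and 11 reads in KO, against 0 and 2 in CTR (log2 change 3.88, SE 0.97, adjusted p = 0.0483). Their KO libraries lay between 0.555 and 3.68 CPM. Each lost its call in at least 1 alternative. The adjusted p reached 0.0632 for Hoxa10 without KO replicate 1, 0.118 for Hoxa4 without CTR replicate 2 and 0.254 for Hoxb1 without CTR replicate 1. The first KO library was above the second in 6 of 6 called Hox genes, by a median of 0.84 on the log2 scale. It was also above the second in 80.3% of the 720 genes called higher, by a median of 0.39, and the part of that difference in the Hox values was not tested.

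Hoxa7, a mid-cluster gene of the thoracic region, was read in both genotypes. It had 1357 and 837 reads in KO oocytes and 909 and 751 in CTR oocytes, above in both KO libraries when scaled to depth. Its level averaged 52.0 ± 13.7 CPM in KO and 31.8 ± 3.73 CPM in CTR (SD, n = 2 each), and the log2 change of 0.59 (SE 0.19) did not pass (adjusted p = 0.0999). Without it, the summed Hox level was 44.8 and 23.4 CPM in KO libraries, against 4.06 and 3.19 CPM in CTR libraries. With it, the sums were 107 and 65.7 CPM in KO, against 38.5 and 32.4 CPM in CTR. Of the 1849 Hox reads of CTR oocytes 1660 were at Hoxa7, a count of reads that is not corrected for gene length.

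Of the remaining tested genes, Hoxc13, which acts in hair and nail, had 57 and 9 reads in KO and 5 and 4 in CTR. Most of that difference lay in 1 KO library, and the log2 change of 2.96 (SE 0.84) did not pass (adjusted p = 0.0778). Hoxa9, a 5' gene of limb and blood, had 15 and 12 reads in KO and 4 and 0 in CTR (log2 change 2.89, adjusted p = 0.115). Hoxb4, known for its part in blood stem cells, had 18 and 18 reads in KO and 18 and 10 in CTR (log2 change 0.59, adjusted p = 0.606). Hoxd13, needed for digits, had 13 and 0 reads in KO and 20 and 31 in CTR (log2 change -1.81, SE 0.95, adjusted p = 0.33). The KO libraries differed from each other here, and without KO replicate 1 Hoxd13 passed in the downward direction (log2 change -7.56, adjusted p = 0.0443).

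The 7 genes with at least 10 reads that were too low to be tested had few reads in any library. Hoxa13 had 20 and 7 reads in KO and 3 and 2 in CTR, and Hoxb7 had 4 and 11 in KO and 2 and 0 in CTR. Hoxb2 had 9 and 3 reads in KO and 2 and 0 in CTR, and Hoxa3 had 5 and 6 in KO and 1 and 0 in CTR. Those 4 genes had counting intervals of the KO over CTR rate that lay above 1, with ratios of 6.73, 9.34, 7.47 and 13.7 in the order named. Hoxa5 had 6 and 2 reads in KO and 1 and 1 in CTR, with an interval from 0.994 to 48.2. Hoxd10 had 8 and 2 reads in KO and 6 and 2 in CTR, and Hoxc6 had 3 and 3 in KO and 6 and 6 in CTR, both with intervals that include 1. Over the 18 genes the interval lay above 1 for 13 and below 1 for 1, Hoxd13. The share of all genes with such intervals was not computed, so these counts do not set Hox genes apart. These intervals cover counting error only, and not the spread between libraries.

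**Figure D3:**
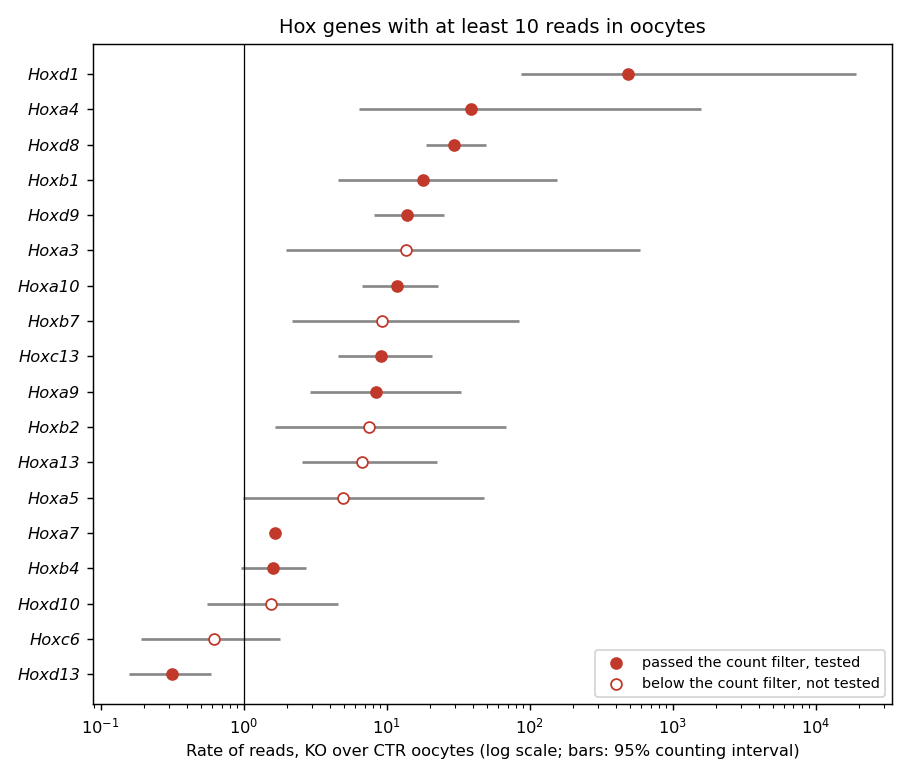
Rate of reads in KO over CTR oocytes for the 18 Hox genes with at least 10 reads, on a log axis. Filled points were tested, open points were below the filter on low counts, and bars are 95% exact counting intervals. Values run from 0.317 for Hoxd13 to 485 for Hoxd1.

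The genes with higher reads in KO lay in all 4 clusters. In the Hoxa cluster (chromosome 6, 52162417 to 52260880) 7 genes had at least 10 reads and all 7 were higher in both KO libraries, and in the Hoxb cluster (chromosome 11, 96194316 to 96368254) 4 of 4 were. In the Hoxc cluster (chromosome 15, 102921131 to 103036856) 2 genes reached 10 reads, Hoxc13 higher and Hoxc6 lower. In the Hoxd cluster 5 genes did, 3 of them higher, 1 lower and 1 overlapping. Summed over the 9 Hoxd genes the level was 32.8 and 16.1 CPM in KO, against 1.90 and 2.10 CPM in CTR, a sum not corrected for gene length. By paralog number, 4 of 4 genes of groups 1 to 3, 6 of 7 genes of groups 4 to 8 and 5 of 7 genes of groups 9 to 13 were higher in both KO libraries. Of all genes with 10 to 500 reads in oocytes, a range that Hoxa7 exceeds, 35.3% were higher in both KO libraries. Some Hox genes reached 10 reads mainly through KO reads, such as Hoxa3 with 11 in KO and 1 in CTR. No difference between clusters or paralog groups was tested.

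Along the Hoxd cluster the genes called higher in KO oocytes lay at 2 places. One was the 3' end with Hoxd1 and Haglr, a long noncoding RNA gene whose annotated span ends 83 bases before Hoxd1 starts. Haglr had 89 and 66 reads in KO and 1 and 0 in CTR (log2 change 7.14, SE 0.72, adjusted p = 0.00124). The other was 57.8 and 65.1 kb away, measured between gene midpoints, at Hoxd8 and Hoxd9. Hoxd3 and Hoxd4, which lie between them, had 1 and 1 reads and 3 and 0 reads in KO, against 1 and 0 reads and 0 and 0 reads in CTR. Towards the 5' end, Hoxd10 and Hoxd13 had the reads given above, with Hoxd13 at 13 and 0 in KO and 20 and 31 in CTR. Hoxd11 had 3 and 1 reads in KO and 2 and 2 in CTR, and Hoxd12 had 0 and 0 in KO and 4 and 1 in CTR. Evx2, the homeobox gene beyond Hoxd13, had 0 and 0 reads in KO and 3 and 3 in CTR. Spans of 10 members overlap that of another member, such as Hoxd3 with Hoxd4 and Hoxa3 with Hoxa4, and the libraries do not mark strand, so reads of such pairs are uncertain.

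**Figure D4:**
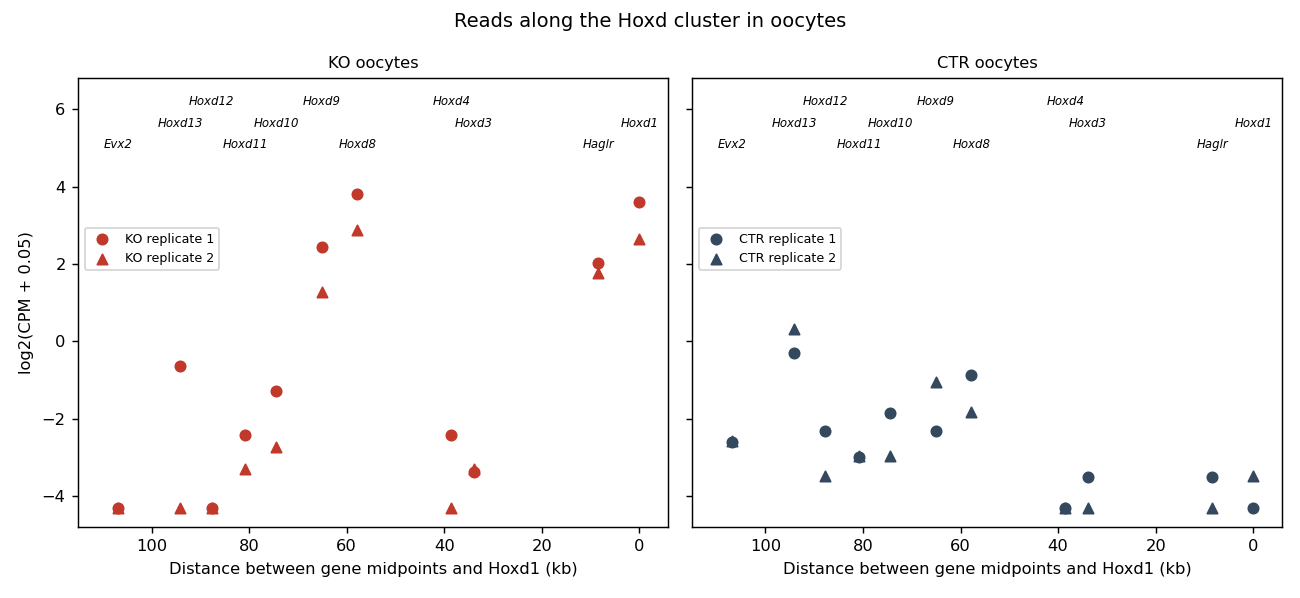
Level of each gene of the Hoxd cluster, with Haglr and Evx2, in KO (left) and CTR (right) oocytes, as log2 of CPM plus 0.05 against the distance in kb between its midpoint and that of Hoxd1. The KO symbols (circles replicate 1, triangles replicate 2) lie far above the CTR symbols of the same gene at 0 and 8.4 kb and at 57.8 and 65.1 kb, while Hoxd3 and Hoxd4 between them have at most 3 reads in any library.

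Genes that act on Hox genes, or lie near them, were examined as lists. Of all 13459 genes tested in oocytes, 5.35% were called higher and 1.87% lower. Of 10 listed activators of Hox clusters 7 were tested and 1 rose, Kmt2a, a trithorax methyltransferase that maintains Hox transcription, with 242 and 110 reads in KO and 2 and 7 in CTR (log2 change 5.41, SE 0.56, adjusted p = 0.00142). The tested activators had a median log2 change of 0.00, against 0.00 for all genes tested. Of 17 genes of the retinoic acid pathway, whose signal opens Hox clusters in the embryo, 8 were tested and 3 rose, with a median of 0.65. These were the retinal reductase gene Dhrs3 (1.01), the retinoic acid synthesis gene Aldh1a2 (0.65) and the receptor gene Rxra (1.10). Of 26 flanking genes, 22 were tested, with a median of -0.17. Atp5g3 rose by 0.88, Smug1 fell by 0.87 on the log2 scale, and Evx1, the homeobox gene beside Hoxa13, had a log2 change of 0.71 (adjusted p = 0.198). Atp5g3 is not next to the Hoxd cluster, as its midpoint lies 853.6 kb from that of Hoxd1. Of 15 noncoding RNA genes of the clusters only Haglr was tested, and of 6 ParaHox genes, relatives in another cluster, 1 was tested and 0 were called.

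Markers of other cells were read beside these results. The 16 granulosa and cumulus markers summed to 110 to 198 CPM in KO and 108 to 109 CPM in CTR. Of 13 tested, Gata4 and Nr2f2 were called higher, and the median log2 change of the 13 was 0.15. Amh and Wt1 had no reads in KO libraries, while the other listed markers, Foxl2 and Fshr among them, had reads there. In CTR libraries every listed marker had reads. Of 12 epiblast and mesoderm markers 5 were tested and 3 were called higher, Pou3f1 and Fgf5 among them. Their median log2 change was 2.72 over the 5 tested, and 5.35% of all genes tested in oocytes were called higher. Pou3f1, with 98 and 29 reads in KO and 0 and 0 in CTR, entered the test only through its KO reads. That median is therefore not a value for the list. All 12 markers together summed to 78.7 to 95.1 CPM in KO and 76.5 to 87.0 CPM in CTR. The part of these markers in the Hox values was not tested.

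In morulae no Hox gene passed the test, and the Hoxd reads lay lower in the libraries labelled matKO than in CTR. Maternal Pcgf6 reads of these libraries ran with that label and Pcgf1 reads against it, which touches every direction given for morulae. In all, 19 Hox genes had no read, 14 had 1 to 9 and 5 had at least 10. Only Hoxd8 and Hoxd9 were tested, both with an unadjusted p under 0.05; DESeq2 did not call Hoxd8 and gave no adjusted p for Hoxd9. Across 9063 genes, 0.0221% were called higher and 0.11% lower, and 1791 genes had an unadjusted p under 0.05. Hoxd9 had 3 and 0 reads in matKO, against 15 and 28 in CTR (log2 change -3.41, SE 1.00, edgeR adjusted p = 0.145, unadjusted 0.0105). Hoxd8 had 4 and 13 reads in matKO, against 24 and 44 in CTR (log2 change -1.66, SE 0.65, edgeR adjusted p = 0.218, unadjusted 0.0355). Hoxd3, which was not tested, had 4 and 6 reads in matKO, against 11 and 26 in CTR, a ratio of 0.334 (0.148 to 0.685). All 3 genes were lower in both matKO libraries than in both CTR libraries, which was so for 29.6% of the 7818 genes with 10 to 500 reads. Hoxd9 passed only without matKO replicate 1 (adjusted p = 0.0445) or without the filter on low counts (adjusted p = 0.042).

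The other morula reads were sparse. Hoxb9 had 1 and 9 reads in matKO and 4 and 2 in CTR, and Hoxc13 had 8 and 0 in matKO and 6 and 0 in CTR. The groups overlapped in both. Hoxb2 had 3 and 3 reads in matKO and 0 and 0 in CTR, which is 2.47-fold higher when CTR is set to 3 reads over the group. The lower limit of its counting interval was 1.46, and all of its reads were paternal. Of the 7818 genes with 10 to 500 reads, a range that Hoxb2 does not reach, 17.3% were higher in both matKO libraries. Hoxb2 is thus not set apart by these few reads. All Hoxa genes together had 5 reads in matKO and 3 in CTR. Hoxd1, the tested Hox gene with the largest log2 change in oocytes, had no read in any morula library, where 3 reads correspond to 1.78 to 2.31 CPM. Hoxa7 had none either. Since reads that fit both parents are not in these sums, the absence of reads does not show that either gene was silent.

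The Hoxd reads of CTR morulae came mostly from the paternal PWK allele. In CTR, Hoxd9 had 0 maternal of 15 reads in replicate 1 and 0 of 28 in replicate 2, which leaves a maternal share of at most 21.8% and 12.3% (95% exact Clopper-Pearson intervals). Hoxd8 in CTR had 0 of 24 maternal reads (upper limit 14.2%) and 6 of 44 (13.6%, 5.17% to 27.4%). In matKO, Hoxd8 had 0 of 4 and 5 of 13 maternal reads, the second a share of 38.5% (13.9% to 68.4%), and all 3 reads of Hoxd9 were paternal. Hoxd3 had 2 of 4 and 2 of 6 maternal reads in matKO, against 2 of 11 and 4 of 26 in CTR. Over all Hox genes there were 25 maternal and 57 paternal reads in matKO, against 22 maternal and 156 paternal in CTR. Parent and strain cannot be told apart here, since every PWK allele is paternal. With paternal reads alone, an alternative added after the data were seen, Hoxd9 had a log2 change of -3.45 (adjusted p = 0.132) and Hoxd8 of -2.06 (adjusted p = 0.124), where 0.302% of 7604 genes were called higher and 0.592% lower. Hoxd3os1, a noncoding RNA gene that overlaps Hoxd3, had 22 reads in matKO and 13 in CTR (log2 change 1.08, adjusted p = 0.389).

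**Figure D5:**
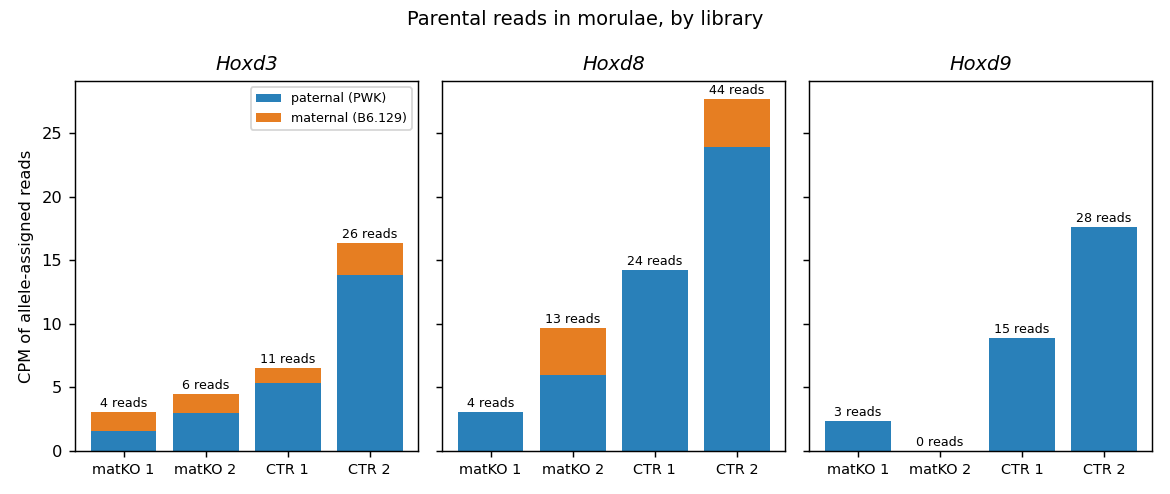
Reads of Hoxd3, Hoxd8 and Hoxd9 in each morula library, as CPM of allele-assigned reads, split into paternal PWK (blue) and maternal B6.129 (orange) parts, with the number of reads above each bar and matKO left of CTR. The CTR bars are higher and mainly blue, with 28 reads of Hoxd9 in CTR replicate 2 and no read in matKO replicate 2.

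The difference between the oocyte and the morula was tested directly, an analysis added after the values were seen. The effect in oocytes minus that in morulae was positive for Hoxd8, at 6.40 on the log2 scale (SE 0.83, adjusted p = 0.0022), and for Hoxd9, at 7.07 (SE 1.18, adjusted p = 0.00791). Of 14719 genes tested, 2.24% had a positive and 0.38% a negative difference, and 10 Hox genes entered the test. Hoxd9 no longer passed without FGO KO replicate 1 (adjusted p = 0.0555) or FGO CTR replicate 1 (adjusted p = 0.0681). For Hoxd1 and Hoxa7 the difference could not be estimated, since neither had a morula read. The 2 stages were counted differently, whole genes in oocytes and allele-assigned reads in morulae. Kmt2a, higher in KO oocytes, had fewer reads in matKO morulae. There it had 0 and 4 reads in matKO, against 37 and 22 in CTR (log2 change -3.46, SE 0.91, adjusted p = 0.125), and its stage difference was 8.89 (SE 1.07, adjusted p = 0.0012). Both matKO libraries lay below both CTR libraries, as in 29.6% of the 7818 genes with 10 to 500 reads in morulae. Of the 10 listed activators of Hox clusters, 8 were tested in morulae and 0 were called. Their median log2 change was -0.43, against -0.02 for all genes tested.

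In ExE few allele-assigned reads of Hox genes were counted in either genotype. Of 38 Hox genes 34 had no read in any of the 6 libraries. The 4 others had 16 reads in the 4 matKO libraries together and 3 in the 2 CTR libraries. Scaled to depth, the summed Hox level was 0.49, 0.75, 2.16 and 0.88 CPM in matKO and 0 and 0.69 CPM in CTR, so the groups overlapped. A floor of 3 reads corresponds to 0.688 to 0.883 CPM, and lower levels were not detectable at this depth. Reads that fit both parents are not in these sums, so a gene without a read here is not shown to be silent. Hoxb13, the 5' gene of its cluster, had 1, 1, 4 and 1 reads in matKO and 0 and 0 in CTR. Hoxc13 had 0, 2, 3 and 0 reads in matKO and 0 and 3 in CTR, Hoxd8 had 2 reads in all of matKO, and Hoxb7 had 2. The library that stands apart, matKO replicate 3, held 8 of the 16 reads. No Hox gene reached the filter, and the test called 0 of 8386 genes higher or lower (percent called 0), with 1161 genes at an unadjusted p under 0.05 and 214 called by DESeq2. For the difference of the effect between oocytes and ExE, 1.66% of 12430 genes were called positive and 0.467% negative. Of 4 Hox genes in that test 0 passed, and Hoxd8 had a difference of 1.40 (SE 4.64). For Hoxa7, Hoxd1 and Hoxd9 it could not be estimated, because ExE had no read of them.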

How the data were processed

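RNA was measured in 14 libraries of fully grown oocytes, morulae and ExE, made with the SMART-Seq v4 kit and Nextera XT per the labels' protocols, which do not mark strand. The values the authors deposited are raw read counts, per the file headers: whole-gene counts for oocytes, and maternal and paternal counts for morulae and ExE, which were summed here. Reads that fit both parents are not in such sums. STAR, RSEM and the build mm10 are among the entries of the submitters' processing notes. The sources used here do not give the counter, the annotation or the rule for assigning reads to a parent. Not analysed here were 4 RNA samples of reciprocal crosses and 40 chromatin samples. The planned use of the reciprocal morulae to share the spread was therefore not made.

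Of the table's genes 39 fit the naming rule and 38 are described; 1 of them, and some genes of the other lists, are not reported here. The members and lists were chosen with earlier results of these data known. Each stage was compared with edgeR 4.0.16 (TMM factors, filterByExpr, robust quasi-likelihood F test), with Benjamini-Hochberg adjusted p-values over all genes tested and calls at 0.05. Standard errors (SE) are the log2 change over the root of F. Differences of effects between stages are interaction terms of 1 fit over both stages. CPM divides by the library's total in the table. Rate ratios of summed reads have 95% exact counting intervals, and parental shares have exact Clopper-Pearson intervals. Both cover counting error only, as PCR copies were not told apart by molecular identifiers. A floor of 3 reads is 0.114 to 0.151 CPM in oocytes.

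Genes are given per library where they had at least 10 reads in the stage. From the other lists, genes past the threshold are named with those exceptions. Alternatives were DESeq2 1.42.0, DESeq2 size factors, no filter on low counts, leaving out each library, a replicate block and counts of 1 parent. The edgeR test was checked on simulated data. Positions and promoter windows come from RefSeq on GRCm38.p6, with coordinates for all 38 genes. Levels of different genes were not compared, because no transcript lengths were used.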

Additional observations from a re-analysis of the deposited data

Results flagged for a closer look

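Hoxd8 and Hoxd9 are listed because their effects in 2 stages differed in a test of the difference. The knockout effect in oocytes minus that in morulae was 6.40 on the log2 scale for Hoxd8 (SE 0.83, edgeR adjusted p = 0.0022) and 7.07 for Hoxd9 (SE 1.18, adjusted p = 0.00791). Both KO oocyte libraries had more reads of each gene than both CTR oocyte libraries, and both morula libraries labelled matKO had fewer than both CTR morula libraries. The test was added after these values were seen. Adjusted p over its alternatives ran from 4.47e-09 to 0.0257 for Hoxd8 and from 2.79e-06 to 0.0681 for Hoxd9.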

How the results depend on the processing

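No log2 change of a Hox gene reversed in any alternative run within a stage. In oocytes Hoxd1, Hoxd8 and Hoxd9 kept their calls in every alternative, with adjusted p up to 0.00105, 0.00237 and 0.0389. DESeq2 did not call Hoxa4 (adjusted p = 0.0672) or Hoxb1 (0.112), and Hoxb1 also lost its call without KO replicate 2 (0.0779). Hoxa7 and Hoxc13 passed without the filter on low counts (0.0454 and 0.00583) and without KO replicate 2 (0.028 and 0.0104). Leaving out 1 library gave 767 to 2029 calls in oocytes with 3 to 7 Hox genes higher and 0 to 1 lower, 7 to 524 in morulae with 0 to 1 Hox genes lower, and 0 to 6 in ExE. It gave 108 to 333 calls for oocyte minus ExE and 124 to 558 for oocyte minus morula, with 1 to 2 Hox genes. In oocytes the 3 Hox genes came without KO replicate 1, and the 2029 calls without KO replicate 2. In morulae the count was 192 and 524 without matKO replicates 1 and 2, and 7 and 256 without CTR replicates 1 and 2. In ExE it was 6 without matKO replicate 3 and 4 without CTR replicate 1. A fit that leaves a group with 1 library assumes that it varies like the other group.

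Without the filter the calls numbered 1630 in oocytes (against 972), 489 in morulae (against 12, with 1 Hox gene lower, Hoxd9), 112 in ExE (against 0) and 791 for oocyte minus morula (against 386). DESeq2 called 199 genes in morulae and 214 in ExE, and DESeq2 size factors gave 54 in morulae. Paternal counts alone, an alternative chosen after seeing the data, gave 68 in morulae, and maternal counts alone gave 5 in ExE. With a replicate block, calls numbered 2021 in oocytes, where Hoxa7, Hoxa9 and Hoxc13 also passed (adjusted p = 0.0246, 0.0386 and 0.00944), 310 in morulae, 923 in ExE, 772 for oocyte minus ExE (against 264) and 668 for oocyte minus morula. Deviations of same-numbered libraries correlated at 0.25 in oocytes, 0.18 in morulae and 0.26 and 0.08 in ExE. The labels do not tie the numbers to a shared litter or day. The cause of these differences was not tested. In morulae 3 reads are 1.78 to 2.31 CPM and in ExE 0.688 to 0.883 CPM, which limits what could be detected.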
